A study of Mus musculus with 12 samples.

Results

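The 9 genes described here code for the core of the Hedgehog pathway: the ligand Shh, the receptors and co-receptors Ptch1, Boc, Cdon and Hhip, the signal transducer Smo and the transcription factors Gli1, Gli2 and Gli3. They were taken by symbol from a table of 55367 genes counted in 12 RNA sequencing libraries of mouse tongue organoids, and all 9 symbols were present. Organoids are three-dimensional cultures grown from tissue cells. Cultures came from 2 lines, labelled CVP and FoP after the circumvallate and foliate papillae of the posterior tongue, and the labels give the cell type as various. In each line, wild type (WT) organoids were sequenced as 2 duplicates, and organoids labelled Foxe1 knock-out were sequenced as 2 clones with 2 duplicates each: clones 2.9 and 2.10 of CVP, and clones 2.4 and 2.5 of FoP. Foxe1 is a forkhead transcription factor gene. The labels give genetic modification as the only treatment, name no clone for wild type and do not say how Foxe1 was altered, so genotype and derivation of a clone cannot be told apart. No strain, age or medium is given. The wild type libraries of a line were treated as duplicates of 1 culture, and p-values measure only the spread between these libraries, of which duplicates may be technical repeats.

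Hedgehog signalling works by release of a brake. Without ligand, the receptor Ptch1 keeps Smo out of the primary cilium, and Gli2 and Gli3 are cut into repressors or degraded; when Shh binds Ptch1 with the help of Boc, Cdon or Gas1, Smo enters the cilium and Gli proteins become activators. Transcription of Gli1, Ptch1 and Hhip commonly follows pathway activity, which is why these genes are widely used to read it. In the tongue, Shh is known from the epithelium of developing papillae and from basal cells of taste buds, and Gli1 from the cells around them.

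Libraries held 59.3 to 73.6 M counts. A gene was tested when it passed edgeR's filter on low counts, which kept 17076 genes and 7 of the 9 members; Shh and Hhip did not pass and are given as counts. Levels are in CPM, counts per 1000000 of the library size scaled by edgeR's TMM factors, and changes are log2 fold changes ± SE. A change was called at an adjusted p under 0.05 in edgeR's quasi-likelihood test over all tested genes. The Foxe1 transcript itself did not separate the labelled groups: it stood at 15.4 and 15.9 CPM in CVP wild type, 23.7 and 22.7 in clone 2.9, 7.33 and 8.46 in clone 2.10, 16.3 and 16.0 in FoP wild type, 22.4 and 20.0 in clone 2.4, and 11.2 and 11.5 in clone 2.5. Knock-out below therefore means only that a library carries that label.

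The members' positions are those of GENCODE M21 on the mouse genome GRCm38. Shh is on chromosome 5 (28456815 to 28467256, minus strand), Ptch1 on chromosome 13 (63508328 to 63573598, minus), Boc on chromosome 16 (44485049 to 44558897, minus), Cdon on chromosome 9 (35421128 to 35507652, plus) and Hhip on chromosome 8 (79965851 to 80058006, minus). Smo is on chromosome 6 (29735503 to 29761365, plus), Gli1 on chromosome 10 (127329882 to 127341974, minus), Gli2 on chromosome 1 (118834132 to 119053619, minus) and Gli3 on chromosome 13 (15463235 to 15730026, plus). All are protein-coding, and values are counts per gene. Exons of 4 members overlap an annotated gene on the other strand, and no source used here says whether strand was used in counting, so reads of such pairs may not have been told apart. The longest stretch of exon that Gli1 shares is 62 bases with Arhgap9, which held 0 to 5 counts per library, and 265 bases with the predicted gene Gm47200, which held 0. Gli3 shares 174 bases with Gm6556 (22 to 62 counts per library), Hhip shares 175 with Gm27820 (0 counts), and Shh shares 273 and 361 bases with a pair of non-coding genes.

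Smo and Cdon were higher in knock-out in both lines, and their upstream sequences are shown for that reason. RefSeq's promoter table (GRCm38.p6) held 6 of the 9 members: Ptch1, Cdon, Hhip, Smo, Gli2 and Gli3. Each sequence below is the 250 bases before the RefSeq start of the gene, 5′ to 3′ on the gene's strand. The Smo stretch is chr6:29735247-29735496 (plus strand) and the capitals mark CCACCC, the core of the Gli binding motif. The Cdon stretch is chr9:35451826-35452075 (plus strand), inside the longer span that GENCODE gives the gene, and the capitals mark TGTTT, the core of the forkhead motif.
Smo: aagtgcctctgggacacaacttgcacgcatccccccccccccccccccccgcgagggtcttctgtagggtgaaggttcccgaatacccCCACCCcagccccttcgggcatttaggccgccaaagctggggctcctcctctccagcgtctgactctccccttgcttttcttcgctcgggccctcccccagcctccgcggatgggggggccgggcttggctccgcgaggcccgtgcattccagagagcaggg
Cdon: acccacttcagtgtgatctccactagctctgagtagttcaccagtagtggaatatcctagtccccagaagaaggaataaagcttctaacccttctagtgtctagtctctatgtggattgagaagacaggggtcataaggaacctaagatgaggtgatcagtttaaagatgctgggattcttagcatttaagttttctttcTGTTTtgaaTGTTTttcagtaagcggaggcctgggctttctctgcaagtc
The Gli motif GACCACCCA was found on neither strand of any of the 6 windows, and it is in 0.225% of 32851 promoter windows of this length. Its core CCACCC, which lies within the longer motif, was in the windows of Smo (starting at -162 from the start), Hhip (-158), Gli2 (-205 and -192) and Gli3 (-170). It was not in those of Ptch1 and Cdon, and 28.1% of all windows hold it on one strand or the other. The windows of Ptch1 (chr13:63565736-63565985, minus strand) and Gli3 (chr13:15463473-15463722, plus strand) also lie inside the longer spans that GENCODE gives these genes. They are therefore not the stretches before the GENCODE starts. G and C made up 68.4% of the window in Smo, 76% in Hhip, 67.2% in Gli2, 72.8% in Gli3, 78.4% in Ptch1 and 42.8% in Cdon. The median over all windows was 52.4%, so they are no matched background for a motif of mostly C. The forkhead motif TGTTTAC was in none of the 6 (3.17% of all windows). Its core TGTTT was in Cdon alone, at -50 and -41, and is in 46.4% of all windows. Cdon's window had the lowest share of G and C of the 6, and lower than the median of all windows. For a motif of mostly T, neither set is therefore a matched background. A match is a stretch of letters, and binding was not measured.

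Hedgehog ligands were at the edge of detection. Shh had 1 count in all, in FoP wild type 2, among 781 M counts over the 12 libraries. A count of 0 in all of them would allow up to 0.00384 CPM (3 counts), so at this depth no level of Shh could be compared between groups. The related ligands Ihh and Dhh, which are no members, summed to 30 counts in 8 libraries and 28 counts in 7 libraries, with at most 8 and 7 in any library. Ihh summed to 5 counts in wild type and 14 in knock-out in CVP, and to 0 and 11 in FoP. Those 11 were all in clone 2.5 (7 and 4). Dhh summed to 1 and 1 in CVP and to 10 and 16 in FoP. These sums are not scaled to depth, and knock-out has more libraries than wild type.

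Hhip, a membrane protein that binds and sequesters Hedgehog ligands and is itself a common target of the pathway, was also near 0. CVP wild type held 3 and 4 counts, clone 2.9 held 0 and 0 and clone 2.10 held 0 and 2. FoP wild type held 4 and 8 counts, clone 2.4 held 0 and 4, and clone 2.5 held 0 and 2. Summed per group and scaled to depth, the wild type to knock-out ratio was 6.45 in CVP (95% counting interval 1.23 to 63.7) and 3.84 in FoP (1.33 to 12.5). In CVP every knock-out library lay below both wild type libraries; in FoP the groups met at 4 counts. The intervals cover counting error alone. They are too narrow if both mates of a read pair were counted, which was not settled here: over all genes and libraries the count value 2 occurred 20289 times and 1 occurred 20007 times, and 4 occurred 10030 times against 6626 for 3.

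In the CVP line, 3 of the 7 tested members changed in knock-out, Smo and Cdon upward and Ptch1 downward. In the FoP line 4 of 7 changed, all upward: Smo, Cdon, Boc and Gli1. Calls were frequent over all genes: 46.4% of the 17076 tested genes passed in CVP (23.5% higher, 22.9% lower) and 28.8% in FoP (13.5% higher), against 42.9% and 57.1% of the 7 members. By overlap alone, 5 members lay higher and 1 lower in CVP knock-out than in both wild type libraries, and 4 lay higher in FoP, against 31.7%, 30.0% and 23.9% of all tested genes. The median of the 7 log2 fold changes was 0.33 in CVP, where the median of all tested genes was 0.03, and 0.43 in FoP, where it was 0.01. In these bulk libraries, fewer cells of a type and less RNA per cell cannot be told apart. Leaving out duplicate 1 of clone 2.9 raised the CVP count to 5, as Boc (adjusted p = 0.0423) and Gli3 (adjusted p = 0.0418) passed edgeR's test. All these counts take duplicates of a clone as separate samples, and in both lines fewer members were called with duplicates summed per culture.

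**Figure D1:**
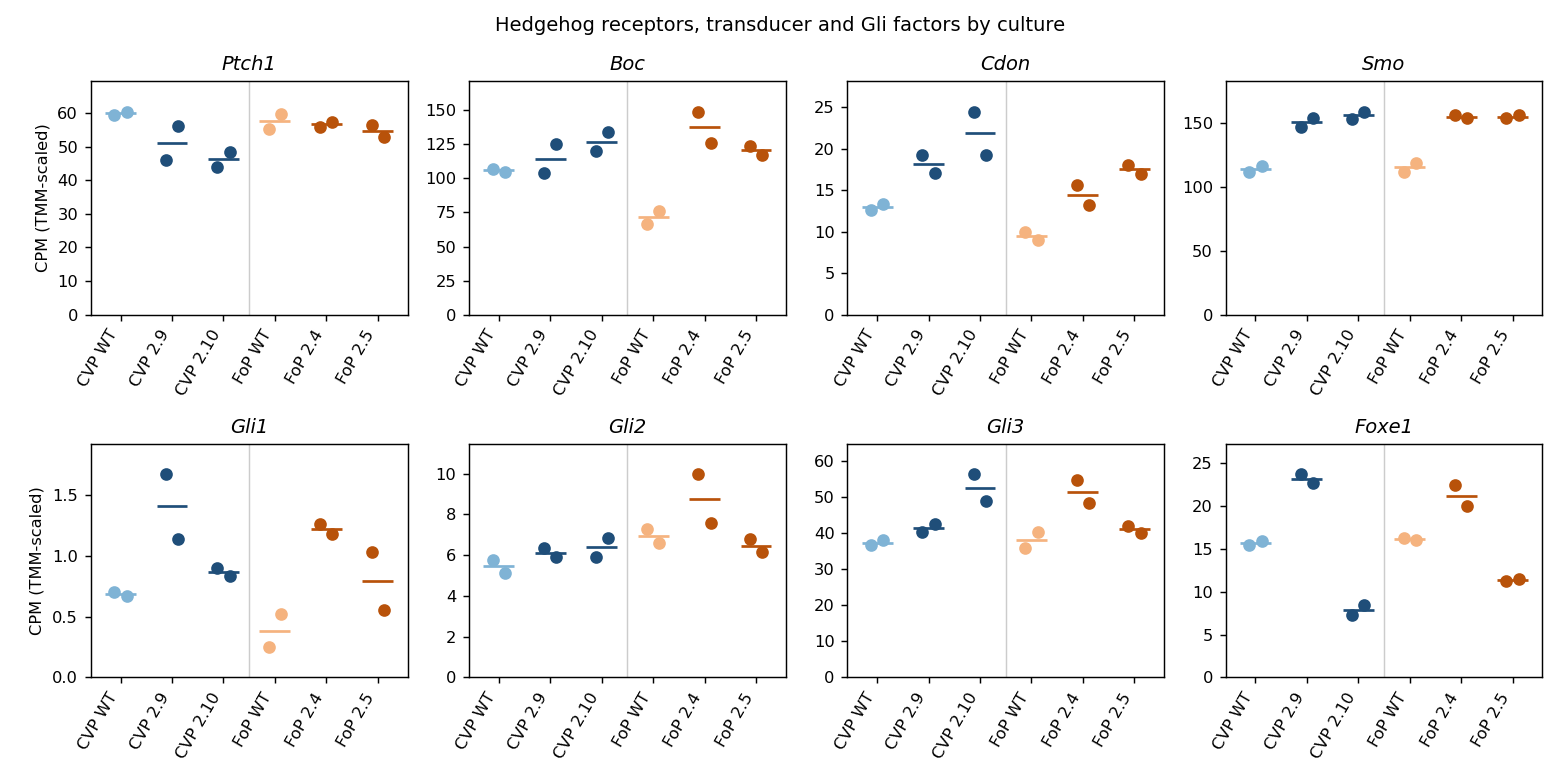
Level of the 7 tested Hedgehog genes and of Foxe1 in CPM (vertical axes, each from 0) in each of the 6 cultures (horizontal axes): points are the 2 duplicates and the bar is their mean, blue for CVP and orange for FoP, wild type in the lighter shade. The 8 knock-out libraries of Smo lie between 147 and 159 CPM, above the 4 wild type libraries at 112 to 119 CPM, while all 4 CVP knock-out libraries of Ptch1 lie below both CVP wild type libraries and Foxe1 goes both ways.

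Smo, the membrane protein that carries the signal inward once Ptch1 releases it, showed the most even change of the set. It stood at 112 and 116 CPM in CVP wild type, 147 and 154 in clone 2.9 and 153 and 159 in clone 2.10. In FoP it stood at 112 and 119 CPM in wild type, 156 and 154 in clone 2.4 and 154 and 156 in clone 2.5. No knock-out library of either line reached down to a wild type library, and the 2 lines held nearly the same levels within each genotype. Smo rose by 0.42 ± 0.05 in CVP (1.34-fold, edgeR adjusted p = 1.4e-05) and by 0.43 ± 0.05 in FoP (1.35-fold, adjusted p = 3.47e-05). The difference between the lines was 0.01 ± 0.06 (adjusted p = 0.959). When the duplicates of a culture were summed to 1 sample, leaving 3 samples per line, the fold change stayed at 0.43 in FoP and its adjusted p was 0.0516; in CVP it was 0.0205.

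Cdon, a cell surface co-receptor of the immunoglobulin family that helps present ligand to Ptch1, was lower in amount and also higher in knock-out. It stood at 12.6 and 13.3 CPM in CVP wild type, 19.2 and 17.1 in clone 2.9 and 24.5 and 19.3 in clone 2.10. FoP wild type held 9.92 and 9.03 CPM, clone 2.4 held 15.6 and 13.2, and clone 2.5 held 18.1 and 17.0. The groups did not overlap in either line; clone 2.10 had the highest level of the 6 cultures, and FoP wild type the lowest. Cdon rose by 0.63 ± 0.14 in CVP (1.55-fold, edgeR adjusted p = 0.00305) and by 0.75 ± 0.15 in FoP (1.69-fold, adjusted p = 0.00209), and the lines differed by 0.12 ± 0.20 (adjusted p = 0.734). With duplicates summed per culture the fold changes were the same and neither passed (adjusted p = 0.0755 in CVP and 0.104 in FoP).

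Boc, the close relative of Cdon with the same role, rose in FoP and was not called in CVP. In CVP wild type it stood at 107 and 105 CPM, in clone 2.9 at 104 and 125, and in clone 2.10 at 120 and 134. FoP wild type was lower, at 66.9 and 76.0 CPM, while clone 2.4 held 149 and 126 and clone 2.5 held 124 and 117. FoP wild type thus stood apart from all 10 other libraries, whose range was 104 to 149 CPM. Boc rose by 0.85 ± 0.11 in FoP (1.81-fold, edgeR adjusted p = 0.000159); in CVP its fold change was 0.19 ± 0.10 (adjusted p = 0.157) and the groups overlapped. The difference between the lines, 0.66 ± 0.15, passed the test (adjusted p = 0.0115) for Boc alone among the 7 members, where 15.8% of all tested genes passed, 7.28% in that direction. It did not pass without CVP wild type 1 (adjusted p = 0.0561) or without FoP wild type 1 (0.0679), nor with duplicates summed per culture (0.203).

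Ptch1, the ligand receptor and a common target of the pathway, fell in CVP and was not called in FoP. It stood at 59.3 and 60.4 CPM in CVP wild type, 45.9 and 56.1 in clone 2.9 and 44.0 and 48.4 in clone 2.10. In FoP it stood at 55.3 and 59.6 CPM in wild type, 55.9 and 57.2 in clone 2.4 and 56.3 and 52.7 in clone 2.5. All 4 CVP knock-out libraries lay below both wild type libraries, the nearest at 56.1 against 59.3 CPM, whereas the FoP groups overlapped. Ptch1 fell by 0.30 ± 0.08 in CVP (1.23-fold, edgeR adjusted p = 0.0076) and its fold change in FoP was -0.05 ± 0.08 (adjusted p = 0.703). The difference between the lines was 0.25 ± 0.11 and did not pass (adjusted p = 0.157), so an effect confined to CVP was not shown; without clone 2.9 it did pass, at 0.33 (adjusted p = 0.0315), and without duplicate 2 of that clone too (0.33, adjusted p = 0.0202). The fall in CVP did not pass without CVP wild type 2 (-0.29, adjusted p = 0.0549) or with duplicates summed per culture (-0.31, adjusted p = 0.0661).

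**Figure D2:**
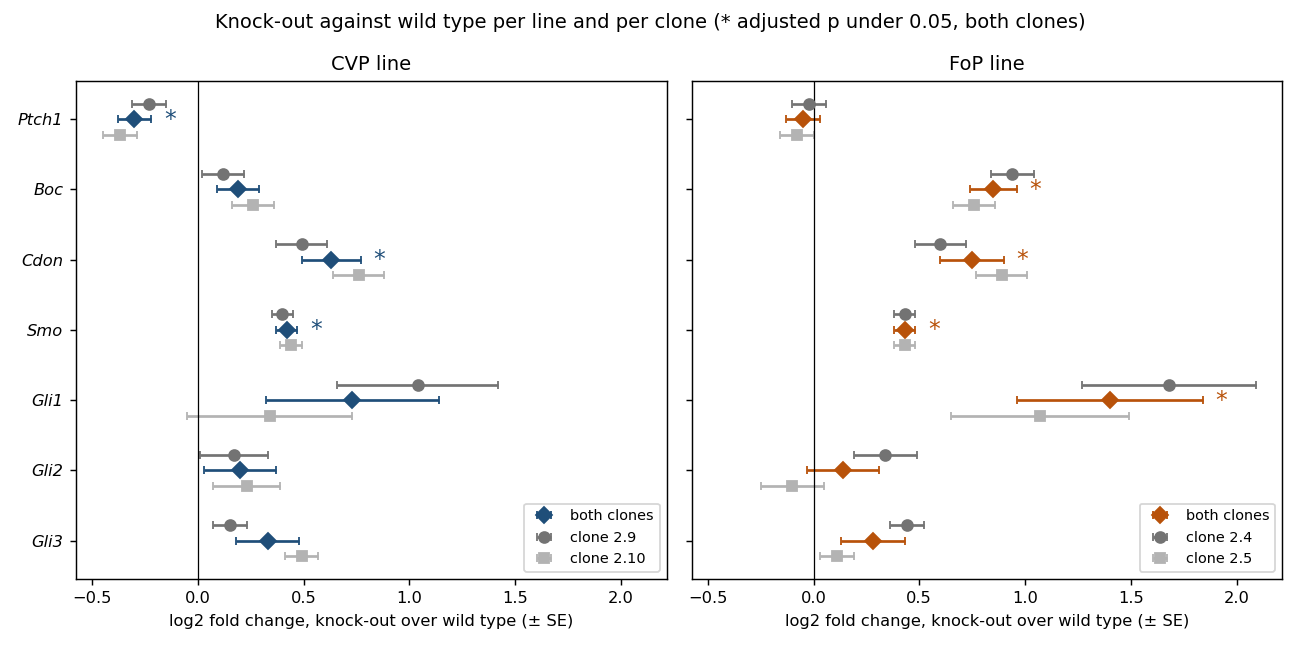
Log2 fold change of knock-out over wild type (horizontal axis) for the 7 tested members, CVP on the left and FoP on the right; diamonds are both clones together and grey symbols each clone alone, bars are ± SE, and stars mark an adjusted p under 0.05 for both clones together. Smo sits at 0.42 and 0.43 in the 2 lines, Boc at 0.19 and 0.85, and Gli1 has the widest bars.

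Gli1, the activator whose transcription commonly reads out the pathway, was the scarcest member that could be tested. CVP wild type held 48 and 48 counts (0.703 and 0.666 CPM), clone 2.9 held 108 and 72 (1.67 and 1.14 CPM), and clone 2.10 held 60 and 54 (0.903 and 0.835 CPM). FoP wild type held 17 and 32 counts (0.247 and 0.518 CPM), clone 2.4 held 83 and 76 (1.26 and 1.18 CPM), and clone 2.5 held 65 and 32 (1.03 and 0.555 CPM). Every knock-out library lay above both wild type libraries of its line, in FoP by a narrow margin for the lowest. Gli1 rose by 1.40 ± 0.44 in FoP (2.64-fold, edgeR adjusted p = 0.029), while in CVP the fold change was 0.73 ± 0.41 (adjusted p = 0.166), and the lines differed by 0.67 ± 0.58 (adjusted p = 0.482). The FoP call was lost without FoP wild type 1 (0.96, adjusted p = 0.255), without duplicate 1 (1.28, 0.0587) or duplicate 2 of clone 2.4 (1.32, 0.0549), without clone 2.4 (1.07, 0.127), with FoP fitted alone (1.40, 0.0503), with duplicates summed (1.43, 0.19) and in limma's voom fit blocked by culture (1.46, 0.103). Of the other common targets among the members, Ptch1 fell in CVP, where Gli1 was not called. In FoP, Ptch1 was at -0.05 ± 0.08 (edgeR adjusted p = 0.703). Hhip, too scarce to test, had fewer counts per depth in knock-out in both lines.

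Gli2, which supplies most activator in many tissues, did not pass in either line. It stood at 5.76 and 5.14 CPM in CVP wild type and between 5.89 and 6.85 CPM in the 4 CVP knock-out libraries (0.20 ± 0.17, edgeR adjusted p = 0.364). FoP wild type held 7.26 and 6.58 CPM, clone 2.4 held 9.97 and 7.56, and clone 2.5 held 6.77 and 6.16 (0.14 ± 0.17, adjusted p = 0.598). The CVP groups did not overlap and the FoP groups did. In FoP the direction rested on clone 2.4, without which the fold change was -0.09.

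Gli3, the main Gli repressor, differed between the 2 clones of each line. In CVP it stood at 36.7 and 38.0 CPM in wild type, 40.3 and 42.5 in clone 2.9 and 56.3 and 48.8 in clone 2.10. In FoP it stood at 35.9 and 40.2 CPM in wild type, 54.7 and 48.3 in clone 2.4 and 41.9 and 40.1 in clone 2.5. One clone of each line, 2.10 and 2.4, lay above every other library, and the other clone lay close to wild type. Over both clones the fold change was 0.33 ± 0.15 in CVP (edgeR adjusted p = 0.0841) and 0.28 ± 0.15 in FoP (adjusted p = 0.177). Without clone 2.9 it was 0.49 in CVP (adjusted p = 0.0137) and without clone 2.5 it was 0.44 in FoP (adjusted p = 0.0486); the CVP value also passed without duplicate 1 of clone 2.9 (0.40, adjusted p = 0.0418), without clone 2.4 (0.33, adjusted p = 0.0438) and without its duplicate 1 (0.33, adjusted p = 0.0491). Clone 2.10 exceeded clone 2.9 by 0.34 ± 0.08 (adjusted p = 0.0228), and clone 2.5 was below clone 2.4 by -0.33 ± 0.08 (adjusted p = 0.0269), the only member called in each of these comparisons, in which 5.42% and 7.26% of all tested genes were called. Those clone tests rest on duplicates. The first did not pass without duplicate 1 of clone 2.9 (adjusted p = 0.163), duplicate 2 of clone 2.9 (0.0625) or duplicate 1 of clone 2.10 (0.181), and the second not without duplicate 1 of clone 2.4 (0.25), duplicate 1 of clone 2.5 (0.0865) or duplicate 2 of clone 2.5 (0.188).

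Set against its own wild type with the spread of duplicates, each clone had 3 to 5 of the 7 members called. Clone 2.9 had 4 (47.1% of all genes were called) and clone 2.10 had 4 (49.6%), and in both Smo and Cdon rose and Ptch1 fell; the fourth was Gli1 in clone 2.9 (1.04, edgeR adjusted p = 0.0382) and Gli3 in clone 2.10 (0.49, adjusted p = 0.00017). Boc in clone 2.10 was at 0.26 (adjusted p = 0.0523) and passed in 10 of 18 alternatives, DESeq2's Wald test (0.0333) among them. Clone 2.4 had 5 (32.4% of all genes) and clone 2.5 had 3 (34.4%), with Boc, Cdon and Smo higher in both. Gli1 (1.68, adjusted p = 0.00578) and Gli3 (0.44, adjusted p = 0.000977) were called in clone 2.4 besides, while in clone 2.5 they were at 1.07 (adjusted p = 0.0627) and 0.11 (adjusted p = 0.342). Smo lay between 0.40 and 0.44 in all 4 clones and Cdon between 0.49 and 0.89. In clone 2.9 the calls of Ptch1 and Gli1 did not survive leaving out its duplicate 1 (adjusted p = 0.389 and 0.253), CVP wild type 1 (0.0903 and 0.118) or CVP wild type 2 (0.12 and 0.135), and in clone 2.4 that of Gli1 did not without FoP wild type 1 (0.0739). The pairs of clones of a line share their wild type libraries.

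Between the wild types of the 2 lines, Boc was the member that differed, lower in FoP by -0.57 ± 0.12 (1.48-fold, edgeR adjusted p = 0.0191), where 6.68% of all tested genes were called and 2.91% were called lower. Cdon was lower in FoP without overlap (-0.45 ± 0.16, adjusted p = 0.122), as was Gli1 (-0.84 ± 0.48, adjusted p = 0.333), and Gli2 was higher without overlap (0.35 ± 0.20, adjusted p = 0.324). Ptch1 (-0.06 ± 0.09), Smo (0.01 ± 0.05) and Gli3 (0.03 ± 0.17) overlapped. Among all tested genes, 30.7% were higher and 28.5% lower in FoP wild type without overlap. With 2 libraries a side the call of Boc did not survive the loss of any one of the 4 (adjusted p = 0.116 without CVP wild type 1, 0.0974 without CVP wild type 2, 0.159 without FoP wild type 1 and 0.0662 without FoP wild type 2), limma's voom fit blocked by culture (0.0538) or summed duplicates (0.444).

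Between the knock-out clones of the 2 lines, 0 of the 7 members were called in edgeR's test, 2 at an unadjusted p under 0.05 and 2 by the DESeq2 Wald test, where edgeR called 24.4% of all genes. The 2 were Ptch1, higher in FoP by 0.19 ± 0.07 (adjusted p = 0.0502), and Cdon, lower in FoP by -0.33 ± 0.11 (adjusted p = 0.054). Boc, which separated the wild types, was at 0.10 ± 0.08 (adjusted p = 0.446) here, with FoP knock-out at 117 to 149 CPM and CVP knock-out at 104 to 134 CPM. All 7 members overlapped between the lines in knock-out, while 12.1% of all tested genes lay higher and 12.7% lower in FoP without overlap.

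Compared per length of transcript, Smo and Boc were the most abundant members in every group. In CPM per kilobase of annotated exon, Smo held 20.3 ± 0.503 in CVP wild type and 27.3 ± 0.876 in CVP knock-out (SD, n = 2 and n = 4), and Boc held 23.8 ± 0.318 and 27.1 ± 2.83. Gli3 (3.90 ± 0.0959 and 4.90 ± 0.749) and Ptch1 (4.22 ± 0.0548 and 3.43 ± 0.375) came next. Those 2 did not overlap in CVP, where Ptch1 was above Gli3 in wild type and below it in knock-out. They overlapped in FoP wild type, and in FoP knock-out Ptch1 (3.72 to 4.03) again lay below Gli3 (4.18 to 5.7). Cdon followed with 1.68 ± 0.0642 and 2.60 ± 0.408, then Gli2 with 0.793 ± 0.0638 and 0.911 ± 0.0653 and Gli1 with 0.137 ± 0.00524 and 0.228 ± 0.0758, and Hhip reached at most 0.0142 in any library. In FoP, Boc (16.1 ± 1.45 CPM per kilobase) lay below Smo (20.5 ± 0.881) in wild type, and the 2 genes overlapped in knock-out (29.0 ± 3.12 and 27.6 ± 0.205). The per-length ratio of Smo to Ptch1 was 4.81 ± 0.0568 in CVP wild type and 8.02 ± 0.783 in CVP knock-out, and 5.07 ± 0.0512 and 7.05 ± 0.296 in FoP, with no overlap in either line. That of Gli3, the repressor, to Gli1 ranged from 27.2 to 29.7 in CVP wild type and from 12.6 to 32.5 in CVP knock-out, and from 40.4 to 75.7 and 21.2 to 37.6 in FoP.

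**Figure D3:**
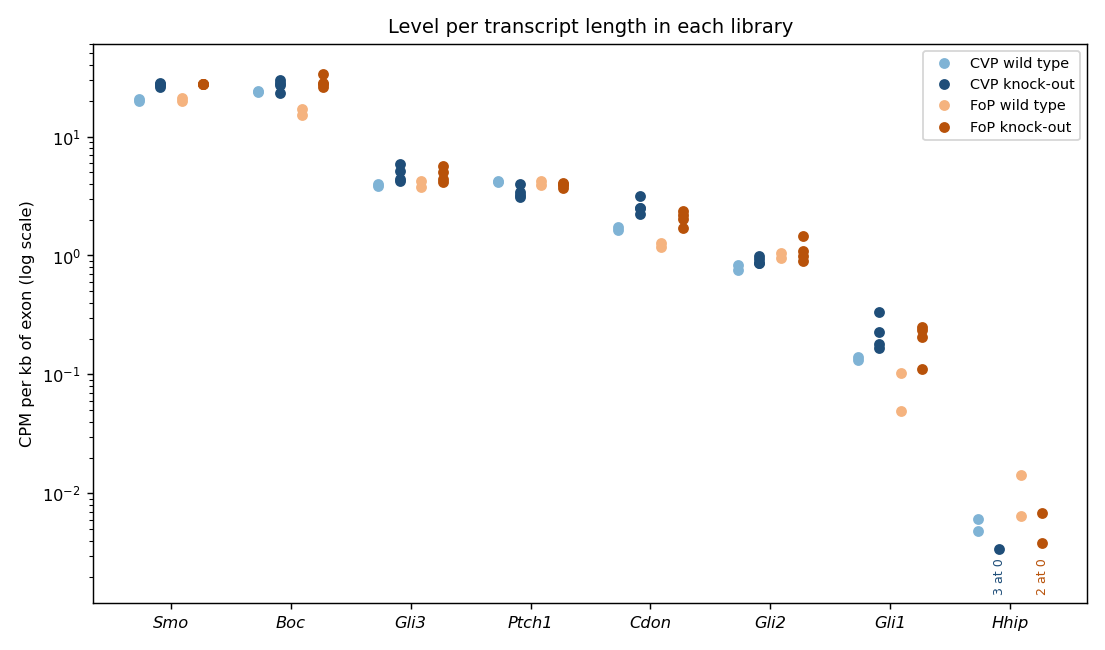
Level of each member in CPM per kilobase of exon (vertical log axis) in each of the 12 libraries, grouped by line and genotype; Shh, with 1 count in all, is left out, and libraries of Hhip at 0 are given as a number. Smo and Boc lie above 10, Gli2 near 1 and Gli1 between 0.0494 and 0.334.

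Across the 12 libraries, levels of Boc, Cdon, Smo and Gli1 went together on the log2 CPM scale, with Pearson's r from 0.63 (Cdon and Gli1) to 0.79 (Boc and Smo). Gli3 went with Smo (0.71) and Boc (0.67) as closely, and less so with Cdon (0.58) and Gli1 (0.53). Ptch1 ran opposite to Cdon (-0.76), and Gli2 followed no other member closely (-0.10 to 0.48). The points share line, genotype and culture, so these are descriptions with no test. The 3 tested genes closest to Smo were Epc2 (0.987), Cdkn2a, which codes for cell cycle inhibitors (0.987), and Fam180a (0.979). For Cdon they were Arpc1b, a subunit of the actin-nucleating complex (0.987), Chpf (0.981) and Pigt (0.979), and for Boc Cd200 (0.970), Zcchc24 (0.967) and the integrin gene Itgb5 (0.964). Ptch1 was closest to Pdk4 (0.952), Airn (0.947) and Ermap (0.944), Gli1 to Ccdc116 (0.936), Cd27 (0.921) and Dpep2 (0.913), Gli2 to P2rx5 (0.935), Msh5 (0.899) and Spata7 (0.891), and Gli3 to Pigk (0.908), Man1b1 (0.907) and Zfp976 (0.906). With 17076 genes and 12 libraries, close matches are found for any gene, and several of these matches had few counts (Ermap at most 39, Ccdc116 at most 51).

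The wider pathway was followed in a list of 71 further genes, of which 62 could be tested. In CVP knock-out 25 rose and 10 fell, with a median log2 fold change of 0.16 (0.03 over all genes); in FoP 19 rose and 7 fell, with a median of 0.11 (0.01 over all genes). Of those that rose, 16 did so in both lines, 64% of the CVP genes and 84.2% of the FoP genes, and 5 fell in both, 50% and 71.4%. Over all tested genes the same shares were 39.2% and 68.3% for those higher, and 44.1% and 65.9% for those lower. Read against the background, 23.5% of all genes were called higher and 22.9% lower in CVP, and 13.5% higher and 15.3% lower in FoP. The counts depend on single wild type libraries: without CVP wild type 1, and without CVP wild type 2, 6 fell in CVP; without FoP wild type 1, 9 rose in FoP; without FoP wild type 2, 11 rose and 4 fell.

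The primary cilium is the organelle through which the signal passes. Of 14 tested cilium genes, 9 rose and 1 fell in CVP (median 0.41), and 8 rose in FoP (median 0.26), with the other 6 not called. Their log2 fold changes ran from -0.24 to 0.81 in CVP and from -0.13 to 0.56 in FoP. Of 23 cytoplasmic regulators of Gli proteins, 5 rose and 7 fell in CVP (median -0.04) and 4 rose and 5 fell in FoP (median -0.02). Of the other receptors and co-receptors, 1 of 5 rose and 2 fell in CVP, and 1 rose and 1 fell in FoP. The background for these counts is that of all tested genes, 23.5% higher and 22.9% lower in CVP and 13.5% and 15.3% in FoP. Gas1, a co-receptor that like Boc and Cdon helps Ptch1 bind ligand, went from 69.6 and 84.5 CPM in CVP wild type to 25.6 to 40.3 CPM in CVP knock-out, and from 40.7 and 48.9 to 49.8 to 66.3 CPM in FoP. Gas1 fell in CVP by 1.28 ± 0.17 on the log2 scale (edgeR adjusted p = 0.000155), its fold change in FoP was 0.40 ± 0.18 (adjusted p = 0.122), and the lines differed (1.68 ± 0.25, adjusted p = 0.00295; 0.184 with duplicates summed per culture). The co-receptors thus did not share a direction in CVP, where Cdon rose, Gas1 fell and Boc was not called.

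Among 4 tested genes of ligand release, 2 rose in each line. Scube3, a secreted protein of the family that helps release Hedgehog ligand, stood at 11.1 and 11.3 CPM in CVP wild type and 31.3 to 66.3 CPM in CVP knock-out (2.07 ± 0.39, edgeR adjusted p = 0.00226), and at 11.9 and 9.69 CPM in FoP wild type and 22.5 to 37.4 CPM in FoP knock-out (1.46 ± 0.38, adjusted p = 0.0197). The groups did not overlap in either line. In FoP the call of Scube3 was lost without FoP wild type 1 (adjusted p = 0.0847), FoP wild type 2 (0.136) or clone 2.4 (0.0878), in limma's voom fit blocked by culture (0.0909) and with duplicates summed (0.264); in CVP it was lost with duplicates summed (0.105). Of 16 tested genes known as Hedgehog targets in other tissues, 8 rose in CVP and the other 8 were not called, and 4 rose and 1 fell in FoP. For these and the genes of ligand release, the share of all tested genes called higher was 23.5% in CVP and 13.5% in FoP. Foxf2, a forkhead factor known from mesenchyme, rose from 3.76 and 3.22 CPM to 24.1 to 40.9 CPM in CVP (3.12 ± 0.38, adjusted p = 0.000144) and from 4.46 and 4.55 to 20.8 to 39.1 CPM in FoP (2.74 ± 0.37, adjusted p = 0.000637; 0.103 with duplicates summed). Ccnd2, a G1 cyclin, rose by 1.02 ± 0.08 in CVP (adjusted p = 2.04e-06) and by 0.88 ± 0.08 in FoP (adjusted p = 1.44e-05). Snai1, a repressor known from epithelial-mesenchymal transition, rose in CVP from 12 and 16 counts to 18 to 66 counts per library (1.62 ± 0.54, adjusted p = 0.0258); the call was lost without duplicate 1 of clone 2.10 (0.0716), clone 2.10 (0.213), CVP wild type 1 (0.156) or CVP wild type 2 (0.0873), in limma's blocked voom fit (0.0944) and with duplicates summed (0.167). Osr2, a zinc finger factor, went opposite ways: in FoP it fell from 256 and 213 counts to between 0 and 6 per library (-6.18 ± 0.92, adjusted p = 0.000648; 0.0599 with duplicates summed), and in CVP it rose from 2 and 10 counts to 6 to 85, with overlapping groups (2.79 ± 1.04, adjusted p = 0.0467). The CVP call of Osr2 was lost in 17 of 24 alternatives (adjusted p up to 0.256), among them the omission of either CVP wild type, and the fitted sizes of so scarce a gene depend on edgeR's prior count. Besides Ihh and Dhh, 7 listed genes were too low to test: Scube1, Scube2, Lrp2, Foxf1, Foxd1, Mycn and Nkx2-2.

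**Figure D4:**
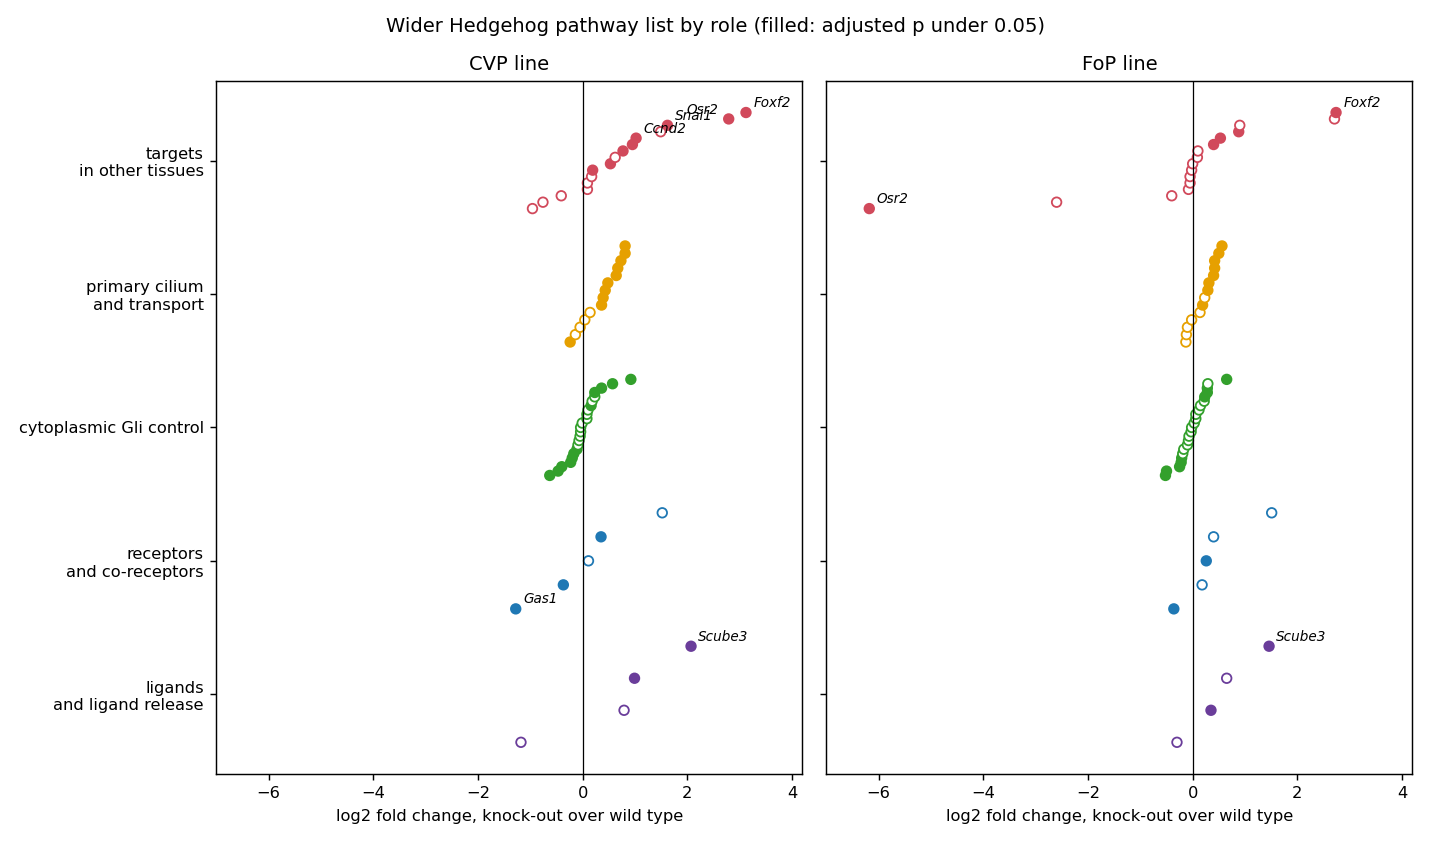
Log2 fold change of knock-out over wild type (horizontal axis) for the 62 tested genes of the wider pathway list, by role (rows; spread within a row only separates the points, lowest to highest), CVP on the left and FoP on the right. Filled points passed edgeR's test at an adjusted p under 0.05, and called genes with a log2 fold change of 1 or more in either direction are named; cilium genes lie mostly to the right, and Osr2 is far left in FoP at -6.18.

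Since Hedgehog signals often pass from epithelium to stroma, markers of both were read beside these values. Epithelial markers dominated every library (Epcam, Cdh1 and 4 keratins, 9420 to 14800 CPM in sum), and their sum went from 9420 to 9900 CPM in CVP wild type to 12400 to 14800 CPM in CVP knock-out, and from 11100 CPM to 10500 to 13400 CPM in FoP. Of these 6, 2 rose and 2 fell in CVP, with Krt5 at 0.58 ± 0.11 (edgeR adjusted p = 0.000745) and Epcam at -0.53 ± 0.07 (adjusted p = 5.56e-05), and 1 fell in FoP. Of 10 taste cell markers, 3 had no count in any library, and 5 could be tested, of which 1 rose and 1 fell in CVP and 1 rose in FoP. Trpm5, the channel of taste receptor cells, was too scarce to test. It held 2 counts in each CVP wild type library and 3 to 15 in CVP knock-out. In FoP it held 0 to 2 counts in wild type and 5 to 8 in knock-out, so the groups did not overlap in either line. The 5 skeletal muscle markers summed to at most 1.16 CPM and the 3 endothelial markers to at most 2.71 CPM. Acta1, an actin of muscle and the only muscle marker tested, fell in CVP (-3.11 ± 0.64, adjusted p = 0.00157), and Pecam1, an adhesion gene of endothelium and the only one of its list tested, rose in CVP (1.73 ± 0.35, adjusted p = 0.00133) and in FoP (2.62 ± 0.37, adjusted p = 0.00028). Of 4 tested markers of Schwann cells and nerve 2 rose in CVP (47.5 to 68.9 CPM in sum over the libraries). In CVP the 12 fibroblast and stroma markers summed to 79.1 to 84.9 CPM (wild type) against 345 to 505 CPM (knock-out). In FoP the sums were 102 to 123 against 151 to 181 CPM, so the sum was higher in knock-out in both lines. Most of it came from Fbn1, Vim and Col6a1, which held 174 to 279, 85.4 to 135 and 53.8 to 133 CPM in CVP knock-out. Smo and Cdon were also higher in knock-out in both lines. Smo rose by 0.42 in CVP and 0.43 in FoP, and Cdon by 0.63 and 0.75. Fbn1 rose by 2.92 in CVP and 0.75 in FoP, and Col6a1 by 2.45 and 1.36. Vim was at -0.17 ± 0.25 in FoP (adjusted p = 0.66). Dcn, a proteoglycan of fibroblasts, was lower in knock-out without overlap in both lines, with at most 1.97 CPM in any library. Of the 9 tested, 5 rose and 1 fell in CVP and 3 rose and 1 fell in FoP. Each marker count here stands against 23.5% of all tested genes higher and 22.9% lower in CVP, and 13.5% and 15.3% in FoP. Pdgfra, a growth factor receptor of fibroblasts, rose in both lines (2.05 ± 0.29, adjusted p = 9.13e-05 and 1.51 ± 0.28, adjusted p = 0.00152), and Vim rose in CVP (1.72 ± 0.27, adjusted p = 0.000742). The difference between the lines passed edgeR's test for Fbn1 (-2.17 ± 0.27, adjusted p = 0.00173) and Vim (-1.89 ± 0.36, adjusted p = 0.00925). It did not pass for Col6a1 (-1.09 ± 0.46, adjusted p = 0.154), Pdgfra (-0.53 ± 0.37, adjusted p = 0.37) or Dcn (0.24 ± 0.60, adjusted p = 0.835). The defining collagen gene Col1a1 held 0.325 to 1.60 CPM and was at -1.02 ± 0.40 in CVP (adjusted p = 0.0527, under 0.05 in 8 of 24 alternatives) and -0.49 ± 0.40 in FoP (adjusted p = 0.4), Lum was at 0 in all 12 libraries and Twist2 had at most 1 count. With duplicates summed per culture, Krt5 in CVP (adjusted p = 0.0835), Acta1 in CVP (0.0518), Pecam1 in CVP (0.0569) and FoP (0.0643) and Pdgfra in FoP (0.0973) no longer passed edgeR's test. The part of other cell types in the members' values was not tested.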

How the data were processed

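Poly(A) RNA of 12 organoid libraries was prepared with a Qiagen kit and TruSeq stranded kits, per the labels' protocols. The deposited table holds raw counts per gene; per the submitters' processing notes the authors used STAR, featureCounts and hg38, with versions and strand setting not given in the sources used here. The symbols are mouse genes. Groups came from the labels, matched to columns by title.

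The 9 members and the lists of pathway and marker genes were chosen with earlier results of these data known. Genes kept by filterByExpr over 4 arms (17076 of 55367) were scaled by TMM and fitted with the robust quasi-likelihood functions of edgeR 4.0.16 in R 4.3.3, p-values being adjusted by Benjamini and Hochberg's method over every tested gene and called under 0.05. Comparisons of lines and genotypes used 4 group means; those of single clones used 6 culture means, whose residual is the spread of duplicates. SE is the log2 fold change over the root of F, an approximation. Libraries held 59.3 to 73.6 M counts before scaling. With TMM the median log2 fold change of all tested genes was 0.028 in CVP and 0.012 in FoP. Named genes were the members, the 3 genes most correlated with each over log2 CPM with a prior count of 2 (predicted genes passed over), list genes called with a log2 fold change of at least 1 in either direction, and defining markers. The fits were tested on simulated data with the same spread for every gene and no difference between clones of a line. The rate of false calls with duplicates nested in clones was therefore not tested. Alternatives were DESeq2 size factors, the Wald test of DESeq2 1.42.0, limma's voom (3.58.1) blocked by culture, no filter, a filter of 1 CPM in 4 libraries, the duplicate number as a block, 1 line per fit, duplicates summed per culture, counts halved, and each library or clone left out; those for single clones, list genes and markers were added after the data were seen.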

Additional observations from a re-analysis of the deposited data

Results flagged for a closer look

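The knock-out effect differed between the FoP and CVP lines for 7 genes of the pathway, by edgeR's test of the difference itself. That is 10.1% of the 69 tested members and listed genes, against 15.8% of all tested genes, a share below that background. Among the members it was Boc, with a difference of 0.66 on the log2 scale (FoP minus CVP, adjusted p = 0.0115), higher in FoP knock-out and not called in CVP. Of the wider list, Gas1 differed by 1.68 (adjusted p = 0.00295) and Sufu, the cytoplasmic Gli inhibitor, by 0.26 (adjusted p = 0.0378), both toward FoP. Toward CVP were Hhat, which attaches palmitate to the ligand, by -0.63 (adjusted p = 0.0104), the ciliary transition zone gene Rpgrip1l by -0.58 (adjusted p = 0.0166), the cyclin gene Ccnd1 by -0.67 (adjusted p = 0.00822) and Osr2 by -8.97 (adjusted p = 0.00352). Hhat, Sufu, Rpgrip1l and Ccnd1 were named for this difference after their values were seen. For Sufu the call was lost in 15 of 24 alternatives, with adjusted p up to 0.292. Single wild type libraries ended other calls: Hhat without CVP wild type 2 (0.0537) or FoP wild type 2 (0.0669), Ccnd1 without CVP wild type 1 (0.0512), and Rpgrip1l without CVP wild type 1 (0.0808), FoP wild type 1 (0.0501) or FoP wild type 2 (0.0778). With duplicates summed per culture no difference of any gene passed. In 14 groups of 4 knock-out libraries no library of a tested member stood apart from the others by Dixon's criterion.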

How the results depend on the processing

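Each value for lines and genotypes was recomputed under up to 25 alternatives and each value for single clones under 18. Smo in CVP stayed called in all 25. With duplicates summed per culture, the called members were 1 in CVP (Smo), 1 in FoP (Boc), 0 for the difference between the lines and 0 between the wild types; of the pathway list 14 rose and 3 fell in CVP and 1 rose and 1 fell in FoP. Voom left 12 listed genes higher in FoP and 0 members between the wild types. Between the knock-outs of the 2 lines 1 member was called with DESeq2 size factors and 2 with no filter, with 1 CPM in 4 libraries, by DESeq2's Wald test, with the replicate block, without clone 2.9 and without clone 2.5; for the difference between the lines it was 2 without clone 2.9.

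Leaving out 1 library at a time gave 2 to 5 called members in CVP, 6 to 10 listed genes lower in CVP, 9 to 20 higher and 4 to 8 lower in FoP, 0 to 2 members for the difference between the lines, 0 to 1 between the wild types, 0 to 2 between the knock-outs of the lines, 0 to 1 between the clones of either line and 2 to 4 in clone 2.9. The direction of these log2 fold changes turned within the range. In FoP knock-out, Gli2 was between -0.02 and 0.23 and Ptch1 between -0.10 and 0.01. For the difference between the lines, Smo was between -0.04 and 0.05, Gli2 between -0.22 and 0.02 and Gli3 between -0.14 and 0.05. Between the wild types, Smo was between -0.04 and 0.06 and Gli3 between -0.06 and 0.11. Between the knock-outs of the lines, Smo was between 0 and 0.03, Gli1 between -0.30 and 0.07 and Gli3 between -0.11 and 0.08. Between clones 2.10 and 2.9, Ptch1 was between -0.28 and 0.01 and Gli2 between -0.05 and 0.16, and between clones 2.5 and 2.4 Smo was between -0.01 and 0.01. Against wild type, Boc in clone 2.9 was between -0.02 and 0.24 and Ptch1 in clone 2.4 between -0.08 and 0.03. None of these was called with all libraries.

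Other alternatives also turned values that were not called. Without clone 2.4, Gli2 in FoP was -0.09. For the difference between the lines, Cdon was -0.01 and Smo -0.02 without clone 2.9, Gli3 was 0.13 without clone 2.10, and Cdon was -0.02, Gli2 0.14 and Gli3 0.11 without clone 2.5. Between the wild types Smo was 0 with no filter. Between the knock-outs of the 2 lines, Smo was 0 and Gli1 0.21 without clone 2.9, Gli3 was 0.16 without clone 2.10, and Gli1 was 0.10 and Gli3 0.13 without clone 2.5; Smo between clones 2.5 and 2.4 was 0 with counts halved.

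The duplicate numbers do not pair the samples: over 15 pairs of cultures the deviations of same-numbered libraries correlated at -0.06 to 0.11 (median -0.01). With the replicate block, Ptch1 (adjusted p = 0.0431) and Cdon (0.0493) passed edgeR's test between the knock-outs of the lines (0.222 and 0.291 with duplicates summed). Under it Osr2 in CVP (adjusted p = 0.0532) and the difference of Sufu (0.0514) no longer passed.

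Over all genes, summing duplicates lowered the called genes from 7929 to 3420 in CVP, from 4921 to 372 in FoP, from 2692 to 0 for the difference and from 1140 to 0 between the wild types, and from 4168 to 22 between the knock-outs; fewer samples were fitted. Without CVP wild type 1 the CVP count was 5238, and without FoP wild type 1 or 2 the FoP count was 2719 or 2668. The difference gave 1422 in voom and 1103 to 1532 without a wild type library. The wild types gave 522 in voom, 1920 by DESeq2 and 101 to 156 without a wild type library. Between the knock-outs voom gave 2634. Clone 2.10 against 2.9 gave 926, falling to 549 and 601 without duplicate 1 or 2 of clone 2.9 and 1494 with no filter; clone 2.5 against 2.4 gave 1239, with 509 to 648 without a library and 1913 with no filter. Without duplicate 1 of clone 2.4 its count fell from 5535 to 3555, and without duplicate 1 of clone 2.5 that of clone 2.5 fell from 5876 to 3911. Other causes were not tested. Shh and Hhip had too few counts to pass the filter.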
